A study of Mus musculus with 6 samples.

Results

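The 32 genes described here encode chaperones, folding enzymes, degradation and translocation factors of the endoplasmic reticulum (ER), with the sensors of its stress response. They were taken by gene symbol from a list of ER genes that was drawn up with earlier results of these data known. All 32 are among the 24421 genes listed in the count tables, and all 32 were among the 15906 genes abundant enough to test. They were measured by RNA sequencing in oligodendrocyte progenitor cells (OPCs), the dividing precursors of the myelin-forming cells of the brain. The question was what changed in OPCs after loss of Prrc2b, which encodes a cytoplasmic protein with a proline-rich coiled-coil region.

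The control group was Prrc2bf/f, mice with a loxP-flanked Prrc2b allele and no Cre (n = 3 libraries). The knockout group was Prrc2bf/f; Olig2-Cre (n = 3 libraries), in which Cre recombinase is made in cells of the Olig2 lineage. Both groups were C57BL/6J pups at postnatal day 4, and both carried the floxed allele. OPCs were taken from dissociated cortex by immunopanning on GalC and then O4, antibodies against surface lipids of the lineage, and were grown in a proliferation medium, although the series' own design text speaks of brain tissue. No group carried Cre without the floxed allele, so an effect of Cre or of the Olig2-Cre allele cannot be told apart from that of Prrc2b loss. The labels do not say that the libraries came from separate animals, so the tests reflect the spread among these libraries alone, which may be technical. In bulk RNA, fewer cells of a type and less RNA per cell cannot be told apart.

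Each library held 26015604 to 28114968 reads assigned to genes. Levels below are counts-per-million values (CPM), scaled by the trimmed mean of M-values (TMM). Prrc2b itself stood at 932, 1111 and 925 CPM in controls 1, 2 and 3 and at 649, 824 and 757 CPM in knockouts 1, 2 and 3. The groups did not overlap, and the log2 fold change was -0.41 (SE 0.06, adjusted p = 0.00688 in edgeR with the replicate number in the fit). Most Prrc2b reads were thus still counted, over the whole gene and not over the floxed part alone. Summed levels of 10 OPC markers ranged from 2511 to 4389 CPM in controls and from 2490 to 5146 CPM in knockouts, with no marker at 0. Markers of several other cell types moved with genotype. Of 8 tested oligodendrocyte and myelin markers and 10 microglial markers, 0 rose and 0 fell in the fit with the replicate number. The summed oligodendrocyte and myelin markers varied widely, at 285, 882 and 207 CPM in controls 1, 2 and 3. In knockouts 1, 2 and 3 they stood at 672, 475 and 255 CPM (Opalin at 0 in a library). With the replicate number in the fit, 9 of 12 endothelial markers rose (sums of 22.3 to 105 CPM in controls, 50.6 to 337 in knockouts), as did 7 of 12 choroid plexus and ependymal markers (366 to 1949 against 850 to 2848 CPM). In the same fit 4 of 10 astrocyte markers rose (1484 to 2715 against 1704 to 3182 CPM) and 2 of 10 pericyte and fibroblast markers (101 to 565 against 143 to 838 CPM). Of 9 tested liver markers 3 rose (107 to 136 against 198 to 240 CPM, Afp at 0 in a library), and 3 of 12 neuronal markers fell (3827 to 5246 against 3388 to 4870 CPM). Their part in the results below was not tested.

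Proteins bound for the cell surface, the exterior or the lysosome enter the ER through the Sec61 channel, fold with the help of lumenal chaperones, and are pulled back to the cytosol for degradation when folding fails. When unfolded proteins accumulate, the sensors Ire1 (gene Ern1), Atf6 and Perk (gene Eif2ak3) start the unfolded protein response. Ire1 splices Xbp1 mRNA, Atf6 is released as a transcription factor, and both induce chaperone and degradation genes, while Perk slows translation. Cells of the oligodendrocyte lineage make large amounts of membrane lipid and protein, and disturbed protein folding in their ER is known to start this response.

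Atf6 and Xbp1 bind the ER stress response element (ERSE), CCAAT, then any 9 bases, then CCACG, in promoters of chaperone genes. RefSeq promoter windows (build GRCm38.p6, 250 bases before to 50 bases after each gene's start) were at hand for 27 of the 32 genes, and none was used for Hyou1, Manf, Derl1, Sec61a1 and Atf6. On either strand, the element was in a window of 9 of these 27 genes (33.3%) and of 37 of all 27025 genes (0.137%), members included. Because the element is one of chaperone gene promoters and the list holds such genes, the larger share is no finding about these data. The 9 genes were Hspa5, Hsp90b1 (2 copies), Calr, Canx, Pdia6, Dnajc3, Creld2, Syvn1 and Derl3. The stretches around the element are shown for 4 of them whose RNA differed between replicate numbers (Hspa5, Dnajc3, Hsp90b1 and Syvn1) and for 2 abundant ones that gave no such call (Calr and Canx). Capitals mark the element, on the gene's own strand or, where it begins with CGTGG, on the other strand.
Hspa5 (chr2:34772005-34772063, + strand): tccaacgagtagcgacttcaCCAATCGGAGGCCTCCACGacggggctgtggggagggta
Dnajc3 (chr14:118937807-118937865, + strand): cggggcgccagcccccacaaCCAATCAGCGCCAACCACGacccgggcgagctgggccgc
Hsp90b1, distal copy (chr10:86705618-86705676, - strand): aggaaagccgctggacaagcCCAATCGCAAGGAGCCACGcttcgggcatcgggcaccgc
Hsp90b1, proximal copy (chr10:86705513-86705571, - strand): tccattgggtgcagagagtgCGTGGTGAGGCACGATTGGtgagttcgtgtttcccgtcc
Syvn1 (chr19:6046512-6046570, + strand): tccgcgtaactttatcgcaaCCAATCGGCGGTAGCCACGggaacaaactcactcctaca
Calr (chr8:84847055-84847113, - strand): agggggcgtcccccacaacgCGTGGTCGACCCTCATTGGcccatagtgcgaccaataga
Canx (chr11:50325780-50325838, - strand): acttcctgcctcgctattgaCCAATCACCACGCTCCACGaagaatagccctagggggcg
The related element ERSE-II (ATTGG, any base, CCACG) was in a window of 2 of the 27 genes (7.41%), Dnajb11 and Herpud1, and of 12 of all genes (0.0444%). The Xbp1 element TGACGTGG was in a window of 0 of the 27 genes and of 193 of all genes (0.714%). A match is a description of these letters and was not tested for binding.

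The most abundant transcripts per length were those of the lumenal chaperones. Calr, the calcium-binding lectin chaperone calreticulin, averaged 295 CPM per kilobase of transcript (280 to 311 over the 6 libraries). Hspa5, the Hsp70 chaperone BiP, averaged 252 CPM per kb (163 to 325), and Hsp90b1, the Hsp90 chaperone Grp94, averaged 241 CPM per kb (219 to 257). The ranges of these 3 overlapped from neighbour to neighbour. A gap without overlap separated Hsp90b1 from the next group, which ran from the disulfide isomerase Pdia6 (133 CPM per kb) through Pdia3 (118), the membrane lectin Canx (118) and the translocon-associated Ssr1 (117) to P4hb (103), with Pdia6 above the others in every library. Levels from Os9 (63.3 CPM per kb) down to Sdf2l1 (10.5 CPM per kb) formed a chain in which each gene overlapped its neighbours. The lowest were Derl3 (3.82 CPM per kb), Ern1 (3.51) and Srp54a (1.58), and Srp54a lay below Ern1 in every library. The level of Srp54a depends on how reads shared with its near-identical copies were counted, since 70.5% of its 150-base windows also occur in them. Eif2ak3 (21.4 CPM per kb) and Atf6 (10.8) stood above Ern1, and Xbp1 (46.2) above all 3 sensors.

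**Figure D1:**
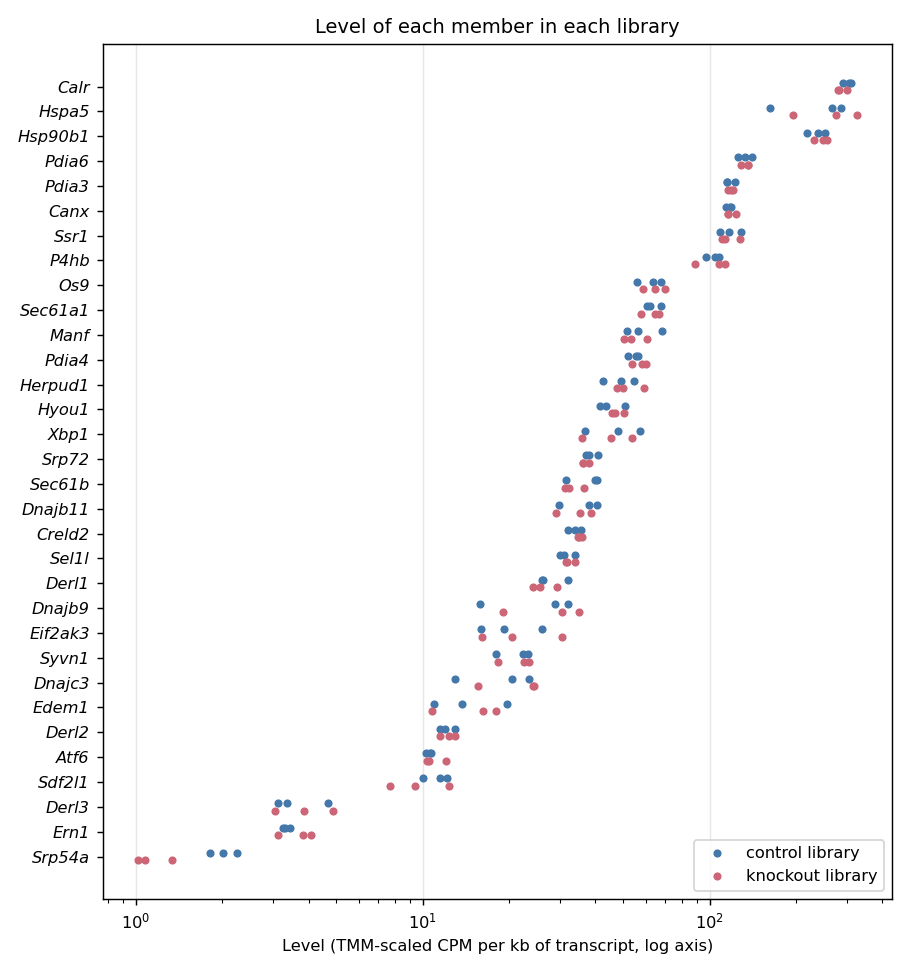
Level of each of the 32 ER genes (rows, ordered by mean) in each of the 6 libraries, as TMM-scaled CPM per kb of transcript on a log axis, with controls and knockouts in separate colours. Calr, Hspa5 and Hsp90b1 are at the top and Srp54a is at the bottom, and within most genes the points of both genotypes intermingle. The place of Srp54a depends on how reads shared with its near-identical copies were counted.

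Between the genotypes, transcripts of the ER folding machinery differed little. Of the 32 genes, 0 passed an adjusted p of 0.05 in edgeR's quasi-likelihood test, where 0 of 15906 genes (0%) did, and 1 member and 274 genes had an unadjusted p under 0.05. DESeq2 and limma-voom without a block also called 0 members. Libraries with the same replicate number deviated together from their group means, so the fit was repeated with the replicate number as a block. There 604 genes passed (3.80%), of which 354 were lower in knockouts (2.23%) and 250 higher (1.57%). Among the members 1 fell, Srp54a, 0 rose and 31 did not pass. At an unadjusted p under 0.05 the blocked fit held 4 members (Srp54a, Hspa5, Dnajc3 and Dnajb9) and 2893 genes. The members' median log2 fold change was 0.02 in both fits, against 0.00 for all genes tested, and with the block 20 values lay above 0 and 12 below. Their median absolute log2 fold change with the block was 0.07, against 0.11 for all genes.

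The precision was high enough to bound most of these differences. With the block, the 95% interval of the fold change lay within 1.5-fold in either direction for 30 of 32 members (93.8%), against 69.6% of all genes tested. The exceptions were Srp54a and the low-abundance Derl3 (log2 fold change 0.08, 95% interval -0.46 to 0.62). Without the block, the interval lay within 2-fold for 31 of 32 (96.9%, all but Srp54a), against 68.4% of all genes. The members and all genes were not matched for level, on which the width of an interval depends. The same holds for the median absolute changes above. Apart from Srp54a, blocked log2 fold changes ran from -0.21 (Sdf2l1) to 0.19 (Dnajc3), with edgeR adjusted p between 0.122 and 0.998. In 8 members (25.0%) knockout exceeded control at each of the 3 replicate numbers and in 6 (18.8%) it lay below at each, against 19.6% and 20.9% of all genes.

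**Figure D2:**
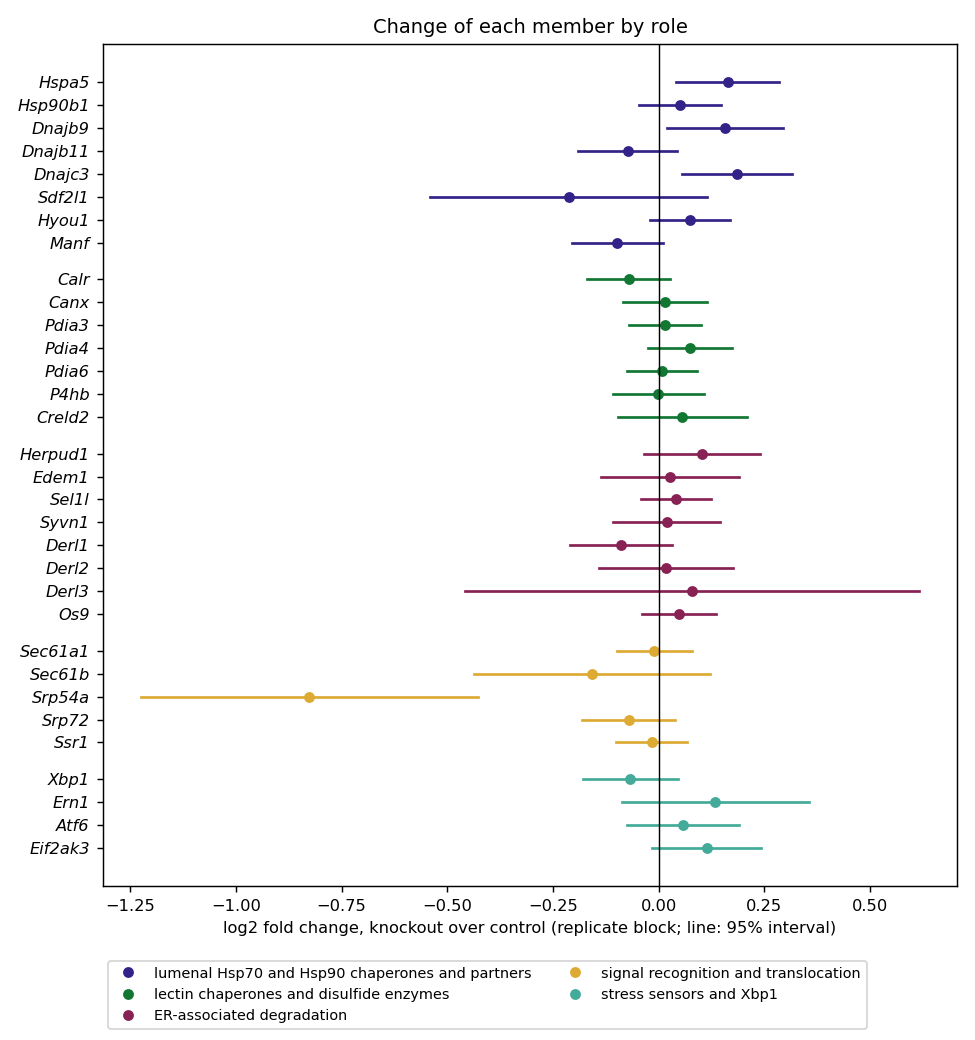
Log2 fold change, knockout over control, of each member in the fit with the replicate block, with its 95% interval, grouped by role. Only the interval of Srp54a (-1.22 to -0.43) belongs to a member that passed an adjusted p of 0.05, and most others lie close to 0.

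Among the 8 lumenal Hsp70 and Hsp90 chaperones and their partners, 0 rose and 0 fell in edgeR, and the median blocked log2 fold change was 0.06. Hspa5 binds unfolded chains and holds the 3 sensors inactive, and its induction is a textbook sign of ER stress. It stood at 977, 598 and 1056 CPM in controls 1, 2 and 3 and at 1010, 720 and 1194 CPM in knockouts 1, 2 and 3 (means 877 ± 245 and 974 ± 239 CPM, SD, n = 3 each). Each knockout library was above the control of the same number, but the groups overlapped widely, with number 2 low in both. The blocked log2 fold change was 0.16 (SE 0.05, 95% interval 0.04 to 0.29) with an edgeR adjusted p of 0.143. DESeq2 and limma-voom with the same block gave adjusted p of 0.0277 and 0.0483 and did call it, in fits that called 4.84% and 4.48% of all genes tested. Without the pair numbered 1, 2 or 3 the log2 fold change was 0.23, 0.11 and 0.16, with edgeR adjusted p of 0.108, 0.588 and 0.270.

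Dnajc3, the lumenal co-chaperone p58IPK that passes clients to BiP, had the smallest adjusted p of the uncalled members. Its levels were 105, 66.4 and 120 CPM in the controls and 125, 80.1 and 124 CPM in the knockouts (97.4 ± 27.8 and 110 ± 25.7 CPM). Again each knockout exceeded its same-numbered control while the groups overlapped (log2 fold change 0.19, SE 0.06, adjusted p = 0.122 in edgeR with the block). Dnajb9, the co-chaperone ERdj4, showed the same layout, with 71.1, 38.9 and 79.2 CPM in controls and 75.5, 46.8 and 86.5 CPM in knockouts (log2 fold change 0.16, SE 0.06, adjusted p = 0.211 in edgeR with the block). Hsp90b1 (0.05) and Hyou1 (0.07), which serve as the Hsp90 chaperone and a nucleotide exchange factor of BiP, had blocked log2 fold changes near 0, with edgeR adjusted p of 0.604 and 0.405. The co-chaperone Dnajb11 (-0.07), the secreted ER stress protein Manf (-0.10) and Sdf2l1 (-0.21, SE 0.15) had values below 0. Of the exon bases of Hsp90b1, 10.3% overlap a gene on the other strand and 5.38% genes on the same strand. Opposite-strand overlap was 8.85% for Manf, 8.16% for Sec61a1, 8.05% for Eif2ak3 and at most 2.87% for each other member. The sources used here do not say whether the counting used strand.

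Among the 7 lectin chaperones and disulfide enzymes, 0 rose and 0 fell, with a median blocked log2 fold change of 0.01. This was the steadiest class, in which the median ratio of the highest to the lowest library was 1.12. The ratio was 1.29 for all members and 1.58 for all genes tested, sets that were not matched for level. Pdia4, a disulfide isomerase, had 132, 124 and 135 CPM in controls and 144, 128 and 140 CPM in knockouts, overlapping groups with a blocked log2 fold change of 0.07 (SE 0.04, adjusted p = 0.426 in edgeR). Calr had 637, 666 and 679 CPM in controls and 615, 612 and 660 CPM in knockouts, lower in each pair but in groups that overlapped (-0.07, SE 0.04, adjusted p = 0.451 in edgeR). Canx (0.01), Pdia3 (0.01), Pdia6 (0.01) and P4hb (-0.00), which retain glycoproteins or form their disulfide bonds, had blocked log2 fold changes at 0 within their errors, with edgeR adjusted p from 0.885 to 0.998. Creld2, a stress-induced disulfide isomerase, stood at 0.06 (edgeR adjusted p = 0.728).

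In ER-associated degradation, the route by which misfolded proteins are retrotranslocated and ubiquitinated, 0 of 8 genes rose and 0 fell, with a median blocked log2 fold change of 0.03. Herpud1, a stress-induced scaffold of the degradation complex, had 106, 95.5 and 83.1 CPM in controls and 116, 92.7 and 97.3 CPM in knockouts (0.10, SE 0.06, adjusted p = 0.430 in edgeR). Derl1, a channel subunit, had 82.4, 83.3 and 102 CPM in controls and 81.3, 76.6 and 93.4 CPM in knockouts (-0.09, SE 0.05, adjusted p = 0.442 in edgeR). In both genes the groups overlapped. The ubiquitin ligase Syvn1 (0.02), its partner Sel1l (0.04), the lectins Os9 (0.05) and Edem1 (0.03) and the derlin Derl2 (0.02) had blocked log2 fold changes within 0.05 of 0, with edgeR adjusted p from 0.582 to 0.927.

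Among the 5 genes of signal recognition and translocation, Srp54a fell and the other 4 did not pass. All 5 had blocked log2 fold changes below 0 (median -0.07). Srp54a encodes the GTPase subunit of the signal recognition particle, which binds the signal sequence of a nascent chain and brings the ribosome to the ER. Its reads numbered 221, 265 and 256 in controls 1, 2 and 3 and 165, 129 and 128 in knockouts 1, 2 and 3, or 8.16, 10.1 and 9.05 CPM against 6.01, 4.59 and 4.83 CPM (means 9.11 ± 0.977 and 5.14 ± 0.757 CPM). All knockout libraries lay below all control libraries, which held for 3.60% of all genes tested. The log2 fold change was -0.82 without the block (SE 0.21, edgeR unadjusted p = 0.00709, adjusted p = 1.00) and -0.83 with it (SE 0.18, 95% interval -1.22 to -0.43, adjusted p = 0.0355 in edgeR). The adjusted p became 0.0993 without the pair numbered 2 (-0.67), 0.160 without the pair numbered 3 (-0.78) and 0.0545 when genes under a mean of 5 CPM were left out.

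This value can be read only beside the near-identical copies of the gene. Srp54a (ENSMUSG00000073079.6) lies at chr12:55080262-55115367 on the + strand of GRCm38, followed by Srp54b at chr12:55155104-55189573 and Srp54c at chr12:55230168-55263836. In the GENCODE transcripts, the coding sequences of Srp54a and Srp54b are identical over 1512 bases (0 mismatches), and that of Srp54c differs from them at 6 positions. The densest stretch of those differences, coding bases 906 to 965, is shown with its 3 differing positions in capitals. Reads over these positions could separate Srp54c from the other copies, but not Srp54a from Srp54b.
Srp54a: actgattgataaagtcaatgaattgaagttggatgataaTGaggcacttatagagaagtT
Srp54b: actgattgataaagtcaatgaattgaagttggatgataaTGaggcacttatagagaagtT
Srp54c: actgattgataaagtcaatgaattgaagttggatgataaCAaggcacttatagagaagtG
Of all windows of 150 bases, the read length, along the Srp54a transcript (4498 bases), 70.5% also occur in Srp54b or Srp54c, and for Srp54b the share was 96.9%. Among the other members only Derl1 shared any window with another gene (0.562%). The counts include a separate entry for multiply aligned reads (on average 3.463% in controls and 3.405% in knockouts). The sources used here do not say whether reads matching several copies were also counted for a gene. Of the 150-base windows, 58.5% of those of Srp54a and 82% of those of Srp54b occur in Srp54c, which had 0 reads. No read from these shared stretches was thus counted for Srp54c.

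Srp54b was counted at 21.0, 6.98 and 12.8 CPM in controls and at 21.1, 10.9 and 5.55 CPM in knockouts, a wide spread within each genotype (13.6 ± 7.03 and 12.5 ± 7.89 CPM). Its blocked log2 fold change was -0.17 (SE 0.27, adjusted p = 0.806 in edgeR). Srp54c had 0 reads in all 6 libraries. Summed over the copies, the level was 29.1, 17.1 and 21.8 CPM in controls and 27.1, 15.5 and 10.4 CPM in knockouts, which overlap. The sum had a blocked log2 fold change of -0.42 (SE 0.17, 95% interval -0.81 to -0.04), with an edgeR adjusted p of 0.231, so the summed gene was not called. Without the pair numbered 1, 2 or 3 in turn the blocked value of the sum was -0.59, -0.57 and -0.12. By replicate number the log2 ratio of the sum was -0.10, -0.14 and -1.07. For Srp54a alone the same ratios were -0.44, -1.14 and -0.91. For Srp54b they were 0.01, 0.64 and -1.20, opposite to Srp54a at number 2 and in the same direction at number 3. The sum adds copies that share unlike parts of their windows (70.5% and 96.9%), so it may not give the level of SRP54 mRNA as a whole. The fall of Srp54a is uncertain as a fall of that whole.

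**Figure D3:**
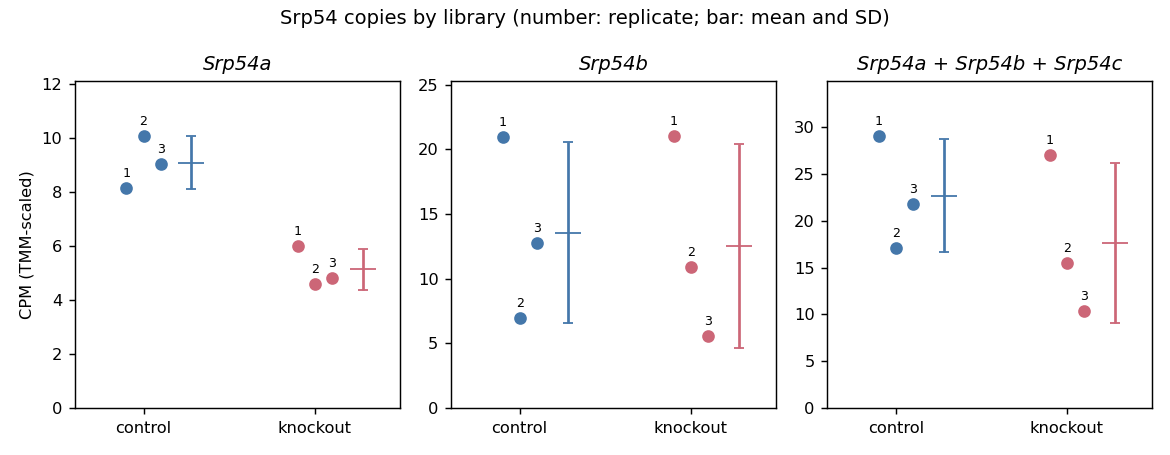
TMM-scaled CPM of Srp54a, of Srp54b and of the sum of the copies in each library (points, labelled by replicate number), with the mean and SD of each genotype (n = 3) beside them. For Srp54a all knockout points lie below all control points, whereas for Srp54b and the sum the genotypes overlap.

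The other translocation genes gave no such difference. Srp72, a structural subunit of the same particle, had 135, 138 and 148 CPM in controls and 131, 138 and 131 CPM in knockouts, overlapping groups (-0.07, SE 0.05, adjusted p = 0.510 in edgeR with the block). Sec61a1 (-0.01) and Ssr1 (-0.02), subunits of the channel and of its associated complex, had blocked log2 fold changes at 0 within their errors, and the small channel subunit Sec61b had -0.16 (SE 0.12), with edgeR adjusted p from 0.567 to 0.927.

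Among the 3 sensors and Xbp1, 0 rose and 0 fell. Ern1 had 23.9, 22.7 and 23.1 CPM in controls and 26.6, 21.8 and 28.4 CPM in knockouts, with 2 knockouts above all controls and 1 below them (log2 fold change 0.13, SE 0.10, adjusted p = 0.532 in edgeR with the block). Atf6 had 77.6, 76.6 and 74.6 CPM in controls and 87.1, 76.3 and 75.2 CPM in knockouts, so that only knockout 1 stood apart (0.06, SE 0.06, adjusted p = 0.675 in edgeR). Eif2ak3 had 117, 72.3 and 86.8 CPM in controls and 138, 72.9 and 92.7 CPM in knockouts, each knockout above its same-numbered control, by little at number 2 (0.11, SE 0.06, adjusted p = 0.343 in edgeR). Xbp1 had 102, 78.1 and 122 CPM in controls and 96.8, 76.6 and 115 CPM in knockouts, each knockout slightly below its control (-0.07, SE 0.05, adjusted p = 0.542 in edgeR). Gene counts do not resolve the spliced form of Xbp1 or the state of the sensor proteins.

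More members differed between replicate numbers than between genotypes. A test of the replicate number with genotype in the model, added after the values had been seen, called 17 of 32 members (53.1%) in edgeR at an adjusted p of 0.05, close to the 51.2% of all genes it called. The calls fell on 7 of 8 Hsp70 and Hsp90 chaperones and partners, 5 of 8 degradation genes, 2 of 5 translocation genes, 2 of 4 of the sensor class and 1 of 7 lectin chaperones and disulfide enzymes (P4hb). Without number 1, 2 or 3 in turn the test called 12, 9 and 14 members, and 6530, 5839 and 4839 of all genes, in fits with fewer libraries. Genes were filtered anew in those fits, so shares of the genes tested were not compared. In 16 of 32 members (50.0%) number 2 was the lowest library in both genotypes, against 24.0% of all genes tested. Edem1 and Derl2 were highest at number 2 in both (6.25%, against 23.7% of all genes).

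Dnajb9 had the smallest p of this test (edgeR adjusted p = 2.09e-05), and its highest library, knockout 3, held 2.22 times its lowest, control 2. Hspa5 (3.76e-05), Eif2ak3 (4.22e-05), Dnajc3 (5.83e-05) and Xbp1 (0.00011) followed, by edgeR adjusted p. These 5 genes, picked by that p, span co-chaperones, BiP, a sensor and the transcription factor of the response. Their mean at number 2 was 0.549 (Dnajb9), 0.622 (Hspa5), 0.669 (Eif2ak3), 0.617 (Dnajc3) and 0.710 (Xbp1) of the mean of numbers 1 and 3. Edem1, a lectin that delivers glycoproteins for degradation and itself a target of Xbp1 in other cells, ran the other way. It had 63.9, 114 and 79.6 CPM in controls and 62.7, 104 and 94.1 CPM in knockouts, so that number 2 stood at 1.46 times the mean of the others (edgeR adjusted p = 0.00024). Canx (edgeR adjusted p = 0.920), Pdia3 (0.471), Calr (0.297) and Srp54a (0.943) were not called by replicate number.

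**Figure D4:**
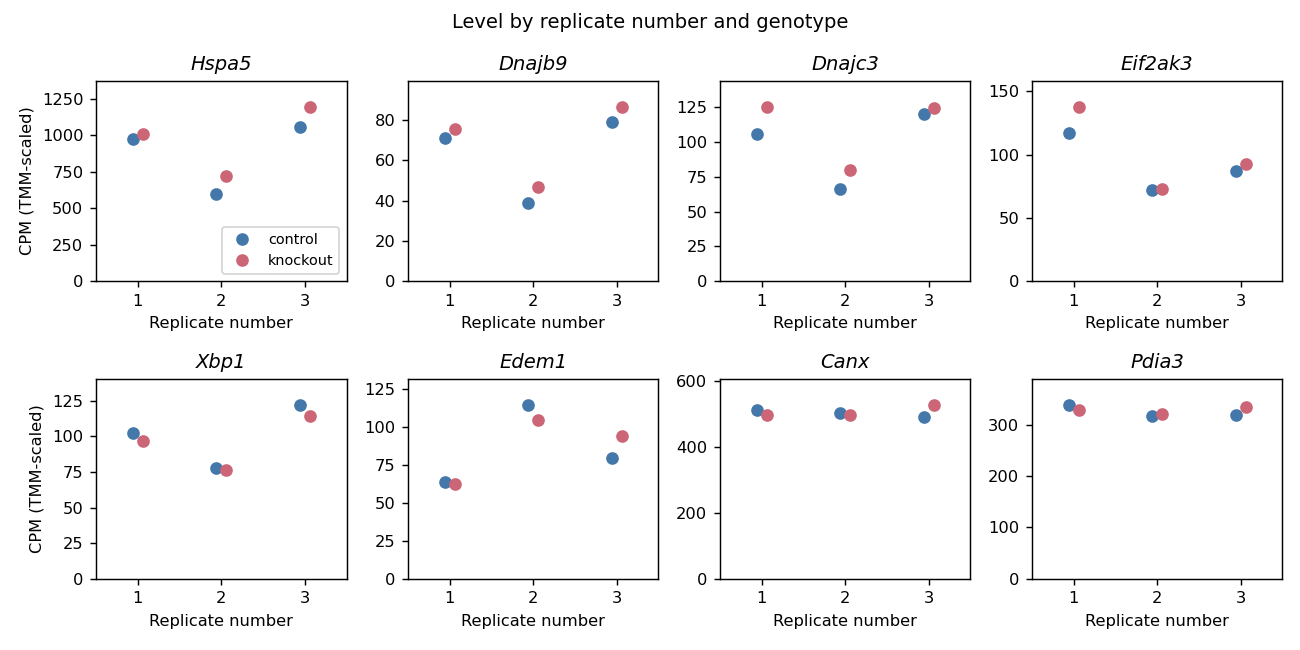
TMM-scaled CPM by replicate number in controls and knockouts for 8 members, 6 that differed by replicate number (Hspa5, Dnajb9, Dnajc3, Eif2ak3, Xbp1 and Edem1) and 2 that gave no call (Canx and Pdia3). Number 2 is low in both genotypes for the first 5 and high for Edem1, and the points of the 2 genotypes lie close together at each number.

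Genes with the ERSE were found both among those that differed by number and among those that gave no such call. Of the 9 genes with it, 4 were called by replicate number and 0 by genotype in edgeR (blocked log2 fold changes from -0.07 to 0.19). Among them Hspa5 was called by genotype in DESeq2 and in limma-voom with the block. Of the 18 genes with a window but without the element, 9 were called by number, and of the 5 genes with no window used 4 were. The 18 include Dnajb11 and Herpud1, which hold the related ERSE-II and were both called by number. Only exact matches were searched for. No test of these shares was made. Summed markers of most cell types moved with the replicate number as well. Those of oligodendrocytes and myelin did not, being highest in control 2 (882 CPM) and in knockout 1 (672 CPM). The liver markers were lowest in control 2 (107 CPM) but highest in knockout 2 (240 CPM). The summed OPC markers were lowest at number 2 in both genotypes (2511 and 2490 CPM), as were those of astrocytes (1484 and 1704 CPM), endothelium (22.3 and 50.6 CPM), pericytes and fibroblasts (101 and 143 CPM), and choroid plexus and ependyma (366 and 850 CPM). The neuronal markers were highest there (5246 and 4870 CPM), as were the microglial ones (353 and 337 CPM, against 26.1 and 23.0 at number 1 and 237 and 269 at number 3). The labels do not say what the numbers mark, and the part of cell composition in these differences was not tested.

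Of 117 further ER genes in 5 lists, 115 could be tested (all but Srp54c and Ern2). As over all genes, none passed in edgeR without the block. With it 1 rose, 2 fell and 112 did not pass, with a median log2 fold change of -0.01. The 3 calls were 2.61% of these genes, against 3.80% of all genes tested, and the 54 calls by replicate number were 47.0%, against 51.2%. Among 23 genes of the signal recognition particle, its receptor and translocation 1 fell, Bag6 (list median -0.04). Among 27 other folding enzymes and chaperones 1 rose, Serpinh1 (list median 0.08). Among 23 other stress transducers and outputs 1 fell, Atf6b (list median 0.00). Of 20 genes of N-glycan transfer and trimming (median 0.01) and 22 other degradation genes (median -0.02), 0 passed.

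Each of these 3 calls depended on a setting. Bag6, a cytosolic chaperone that guides tail-anchored proteins to the ER, had 447, 453 and 398 CPM in controls and 381, 391 and 347 CPM in knockouts, without overlap (-0.21, SE 0.04, adjusted p = 0.0158 in edgeR). With a correction for GC content it stood at -0.07 (edgeR adjusted p = 0.348), whereas without the pair numbered 1 or 3 the value was kept (-0.20 and -0.22) while the adjusted p rose to 0.0810 and 0.0616. Serpinh1, the collagen chaperone Hsp47, had 152, 89.1 and 170 CPM in controls and 168, 100.1 and 219 CPM in knockouts, overlapping groups in which each knockout exceeded its same-numbered control (0.23, SE 0.05, adjusted p = 0.0434 in edgeR, and 0.262 without the pair numbered 3). The pericyte and fibroblast markers, cells that make collagen, moved with it (101 to 565 CPM in controls, 143 to 838 in knockouts), and their part in it was not tested. Atf6b, a paralog of Atf6, had 97.6, 87.7 and 87.0 CPM in controls and 80.0, 73.6 and 77.7 CPM in knockouts, without overlap (-0.23, SE 0.05, adjusted p = 0.0492 in edgeR). It was at -0.09 with the GC correction (edgeR adjusted p = 0.410) whereas without a pair it ranged from -0.27 to -0.20 with adjusted p of 0.101 to 0.189.

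**Figure D5:**
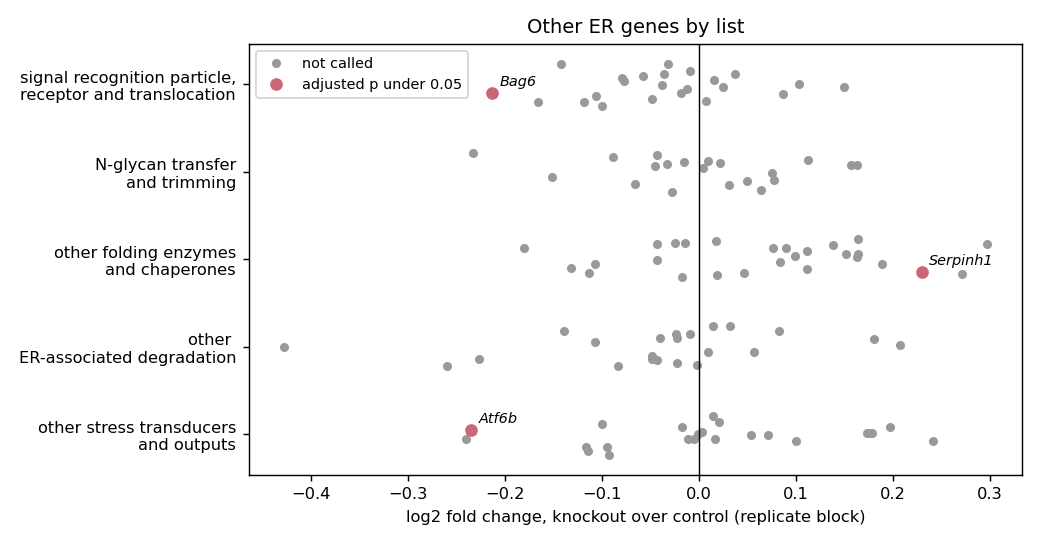
Log2 fold change, knockout over control with the replicate block, of each tested gene of the 5 further ER lists (points, spread vertically for legibility). Bag6, Serpinh1 and Atf6b are the genes with an adjusted p under 0.05, and the others scatter around 0.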

How the data were processed

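The deposited tables give whole read counts per gene for 3 control and 3 knockout libraries (poly(A) RNA, strand-marked kit, paired reads of 150 bases, per the labels' protocols). Per the submitters' processing notes, HISAT2 2.2.1, HTSeq 0.12.4, DESeq2 1.26.0 and build mm10 were used by the authors, with no roles given. The 5 summary entries, which name no gene, entered neither library sizes nor tests (on average 19.65% of counts without a gene, 1.463% ambiguous, 3.112% of low quality, 1.025% unaligned and 3.463% multiply aligned in controls, and 20.75%, 1.454%, 3.83%, 1.247% and 3.405% in knockouts).

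Genes were filtered with filterByExpr, which kept 15906 of 20148 genes with a count (99.95% of counts). They were tested with edgeR 4.0.16 (TMM, quasi-likelihood, Benjamini-Hochberg adjustment over all tested genes, R 4.3.3), without and with the replicate number as a block. Same-numbered libraries correlated in their deviations from group means (0.712, 0.682 and 0.654), which is where the pairing comes from, since the labels do not explain the numbers. The biological coefficient of variation was 0.3148 without and 0.1041 with the block. DESeq2 1.42.0, limma-voom (limma 3.58.1), other scalings and filters, a GC correction (15332 genes) and leaving out libraries were alternatives. The fits were tested on simulated data.

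The members and gene lists were chosen with earlier results of these data known. All members are named, with values in every library for called members, the 2 of each class with the smallest unadjusted p with the block, the sensor class and the highest and lowest per length. Dnajb9 and Edem1 were added after their values were seen. Called genes of the 5 further lists, Prrc2b and the Srp54 copies are also named. Coordinates and transcript lengths are from GENCODE (GRCm38), promoters from RefSeq.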

Additional observations from a re-analysis of the deposited data

Results flagged for a closer look

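Reads outside the gene counts differed between the genotypes, with all 3 knockout libraries above all 3 control libraries in each case. The share of counts assigned to no gene averaged 20.75% in knockouts (20.4% to 21.32%) and 19.65% in controls (18.89% to 20.1%). The share with low alignment quality averaged 3.83% in knockouts (3.599% to 4.091%) and 3.112% in controls (2.909% to 3.295%). The unaligned share averaged 1.247% in knockouts (1.158% to 1.386%) and 1.025% in controls (0.9624% to 1.136%). These differences were not tested, and their part in the values of the ER genes was not tested.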

How the results depend on the processing

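Without the block, the 0 calls among members held under each alternative run except the replicate block, which gave 1, while over all genes DESeq2 called 20 and the replicate block 604. Leaving out 1 library moved the members' median log2 fold change between -0.036 and 0.053, and that of Eif2ak3 between -0.16 and 0.35, with no call. With the block, the single call among members became 0 with a mean of at least 5 CPM or a threshold of 0.01, 2 with DESeq2 and 2 with limma-voom, and 0 to 1 without a pair. The 604 calls over all genes became 1034 with no filter, 385 with the GC correction and 174 to 521 without a pair, and the 3 calls among other ER genes 0 to 4 without a pair. Without a pair, P4hb ranged from -0.058 to 0.064 and Edem1 from -0.078 to 0.11, uncalled. The replicate-number test gave 9 to 14 members and 4839 to 6530 genes without a number. Over single members, a sign change within 1 SE of an uncalled value counting as no change, 446 of the values without the block kept direction and call, 1 gained a call and 1 reversed, and with the block 345 kept them, 3 lost and 2 gained a call and 2 reversed. The block changed no other call than those given. With the block, Derl3, Srp54a and Sdf2l1, the 3 least counted members, had the widest intervals, whereas without it Dnajb9 had the widest.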
